A study of Mus musculus with 22 samples.

Results

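The canonical histone genes of the mouse code for the linker histone H1 and the core histones H2A, H2B, H3 and H4 that package newly made DNA. Members were all protein-coding genes whose GENCODE M21 symbol begins with Hist1h, Hist2h, Hist3h or Hist4h, which gave 67 of the 55487 genes in the deposited tables. They were chosen by name and not by any measured value. The 67 members are 6 H1, 18 H2A, 18 H2B, 12 H3 and 13 H4 genes. On GRCm38 (mm10) the Hist1 cluster of 54 members spans 21715763 to 23934851 of chromosome 13, in a block of 23 genes ending at 22043676 and a block of 31 genes starting at 23531050. The Hist2 cluster has 10 members between 96219865 and 96270132 of chromosome 3. The Hist3 cluster has 2 members, Hist3h2ba and Hist3h2a, between 58948920 and 58956830 of chromosome 11, and Hist4h4 alone makes up the Hist4 locus at 136801553 to 136804415 of chromosome 6.

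Replication-dependent histone genes are transcribed mainly in S phase, from histone locus bodies where NPAT and CASP8AP2 gather. Their mRNAs end in a conserved stem-loop in place of a poly(A) tail. The stem-loop is bound by SLBP, and the U7 snRNP, with its proteins LSM10 and LSM11 and the zinc finger protein ZFP473, directs the cut that forms the mature end. Libraries made by poly(A) selection, as here, hold histone transcripts that carry a tail and whatever untailed RNA is carried over. DUX, a transcription factor of the early cleavage embryo, is known for driving embryonic stem cells into a state that resembles the 2-cell embryo.

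Poly(A) RNA was sequenced from mouse embryonic stem cells (mESCs) of a Dux-/- line kept in 2iLIF medium. Every group carried a transgene for mCherry, a red fluorescent protein, alone or tagged to DUX or a derivative, and every group received 0.25 ug/mL doxycycline for 12 hours, starting 24 hours after plating. The study has 11 groups with 2 replicates each (22 samples), of which 20 libraries of 10 groups were used here. C3delt14 was not analysed here.

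The groups are named as in the labels: FL (mCherry-FL Dux), C3+14, C1+14, C1C3a, C1C3b, C1C3c, C12345delt14, deltC12345+14, deltC12345delt14 and the tag alone, mCherry. The labels spell out neither the C numbers, nor 14, which the column headings write as 14aa, nor what distinguishes a, b and c. They do not say whether a line is a single clone or whether replicates came from separate cultures, so p-values measure only the spread between these samples. The values came in 2 tables that the authors scaled separately. The chimera table held 14 libraries of 7 groups (mCherry, FL, C1+14, C3+14 and the 3 C1C3 chimeras), and the deletion table held 8 libraries of 4 groups (FL, C12345delt14, deltC12345+14 and deltC12345delt14). The FL libraries were the same in both, with 0 genes differing in reads.

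Libraries held between 21059953 and 40448890 reads, and the histone members took between 874 and 31186 reads of a library. The row of Duxf3, the Dux gene of this annotation, was at 0 reads in all 20 libraries, including those with an induced transgene, so it does not check the labels. All 8 pluripotency markers had reads in every group, with summed normalised counts between 47359 in C1C3b and 102013 in mCherry within the chimera table. In FL 6 of the 8 were called lower than in mCherry by the rule given below, where 19.6% of all genes were. Among them were Sox2, with 463 and 1039 against 4962 and 4866, and Esrrb, with 2032 and 2871 against 13469 and 13881. Dppa5a and Pou5f1 made up most of the sum. Those called lower than in mCherry numbered 5 for C3+14 and C1C3b, 4 for C1C3c, 3 for C1C3a and 1 for C1+14. Over all genes the share called lower in these groups ran from 5.95% in C1+14 to 19% in C1C3a. The part of these markers in the histone results was not tested. Markers of the 2-cell state (Zscan4c, Zscan4d, Zfp352, Tcstv1, Tcstv3 and Usp17lc) summed to 1355140 and 725112 in FL, 724971 and 792252 in C3+14, 11 and 4.96 in C1+14, 323957 and 476214 in C1C3a, 18930 and 13384 in C1C3b, 897 and 823 in C1C3c, and 0.660 and 0.858 in mCherry, where 5 of the 6 were at 0. Libraries also differed in the share of reads from 1593 genes with many near-identical copies, which was between 0.295% and 0.419% in C3+14, mCherry, deltC12345+14 replicate 2 and deltC12345delt14 replicate 1, and between 1.66% and 2.58% in all others. C3+14 and mCherry are thus alike in that share, whereas FL, C1C3a, C1C3b, C1C3c and C1+14 differ in it from mCherry. Its part in the results was not tested.

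The stem-loop is shown here because it is the feature that sets these mRNAs apart from others. A search of the annotated GENCODE M21 transcripts for the histone stem-loop consensus found it in 46 of the 67 members. Of the other 21, 15 have annotated exons under 500 bp. The kinds of stem-loop found follow, written 5′ to 3′ with the loop in capitals.
Hist1h3d, Hist2h3c2, Hist3h2ba, Hist1h1c and 22 others: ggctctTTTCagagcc
Hist1h4n, Hist1h4m, Hist4h4 and 4 other H4 genes: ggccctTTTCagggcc
Hist1h3c, Hist1h3e, Hist1h3f, Hist1h2bb, Hist1h2bk and Hist1h1t: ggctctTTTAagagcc
Hist1h4i and Hist2h4: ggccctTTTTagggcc
Hist1h4b and Hist1h4j: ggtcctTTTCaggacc
The remaining kinds occurred in 1 member each (Hist1h4a, Hist1h3g and Hist2h2ac). In 23 members the annotated transcript ran on for over 100 bases past the stem-loop, in 14 of these to an AATAAA, the core of the poly(A) signal, and in 22 it stopped within 60 bases of the stem-loop. No stem-loop was found in the annotated transcripts of Hist1h2bc, Hist2h2be, Hist1h2bq and Hist1h2br.

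Promoters from RefSeq (GRCm38.p6), 250 bases before to 50 after the start, were matched for 62 of the 67 members. Both strands were searched for 4 motifs, none of which contains another. CCAAT lay in 53 member promoters (85.5%), against 37.9% of all 27025 promoters, and was found in all H1, H2A, H2B and H3 promoters but in 3 of 12 H4 promoters. TATAAA lay in 35 member promoters (56.5%), against 14.2% of all. The octamer ATTTGCAT, the site of POU-domain factors such as POU2F1, lay in 7 of 18 H2A and 6 of 16 H2B promoters and in none of the H1, H3 and H4 promoters, against 1.75% of all. The DUX-type double-homeodomain motif lay in 0 of 62 member promoters, against 11 (0.0407%) of all. The 250 bases before the start are printed for 4 members that the comparisons below turn on, with only CCAAT and TATAAA in capitals on either strand.
Hist1h3d, chr13:23575513-23575762, plus strand: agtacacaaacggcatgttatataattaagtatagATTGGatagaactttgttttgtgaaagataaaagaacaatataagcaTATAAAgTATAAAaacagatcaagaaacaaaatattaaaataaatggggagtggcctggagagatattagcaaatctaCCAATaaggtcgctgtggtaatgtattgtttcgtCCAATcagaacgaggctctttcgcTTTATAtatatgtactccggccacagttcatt
Hist1h4n, chr13:21832198-21832447, minus strand: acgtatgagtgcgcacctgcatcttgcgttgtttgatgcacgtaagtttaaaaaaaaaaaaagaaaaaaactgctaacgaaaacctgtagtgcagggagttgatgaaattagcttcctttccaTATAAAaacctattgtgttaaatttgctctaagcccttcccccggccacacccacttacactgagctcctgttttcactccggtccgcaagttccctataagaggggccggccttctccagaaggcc
Hist3h2ba, chr11:58948661-58948910, plus strand: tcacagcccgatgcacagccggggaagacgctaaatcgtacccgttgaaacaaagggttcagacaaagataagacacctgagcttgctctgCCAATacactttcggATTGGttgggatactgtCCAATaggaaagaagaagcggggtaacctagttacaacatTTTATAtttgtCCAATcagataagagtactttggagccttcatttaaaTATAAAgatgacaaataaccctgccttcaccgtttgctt
Hist2h3c2, chr3:96239128-96239377, minus strand: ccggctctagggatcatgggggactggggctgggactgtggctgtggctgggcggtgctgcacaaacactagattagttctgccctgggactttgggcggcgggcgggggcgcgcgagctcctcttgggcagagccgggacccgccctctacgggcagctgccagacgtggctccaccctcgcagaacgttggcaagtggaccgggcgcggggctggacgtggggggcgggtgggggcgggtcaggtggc
The stretch before Hist2h3c2 holds neither, and its CCAAT lies in the 50 bases after the start.

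Values are normalised read counts, that is, reads of a gene divided by 1 size factor per library. Of the 67 members, 58 (chimera table) and 57 (deletion table) reached a value of 10 in at least 2 libraries and were tested. In the chimera table Hist2h2aa1, Hist2h2aa2, Hist2h3c1, Hist2h3b and Hist2h2bb had 0 reads in every library, and each shares between 53.6% and 100% of its 50-base stretches with other genes. Hist1h1t, the testis H1, Hist1h2aa, the testis H2A, Hist2h2ab and Hist2h2ac had between 5 and 38 reads over all 14 libraries. In the deletion table Hist1h4b was also too low to test. Near-identical copies limit all values of single histone genes, since the median member shares 49.5% of its 50-base stretches with another gene. How the authors counted reads that match several genes is not given in the sources used here. Sums, type shares and counts of called members depend on it as well. Copies such as Hist1h2bq and Hist1h2br had almost the same reads, with 571 and 591 in FL replicate 1. Hist1h3h (93.9% shared), Hist1h4n (85.6%), Hist1h4m (89.8%), Hist1h2bq (97.3%) and Hist1h2br (88.7%) are uncertain as single genes for that reason. By annotated sequence Hist1h4i (28.9%), Hist1h1c (8.54%) and Hist2h2be (0%) are largely distinct. Hist1h3d shares only 24.8%, but its reads ran close to those of Hist1h3b, with 1106 and 1208 against 1052 and 1194 in FL. In mCherry they were 29 and 20 against 30 and 21, so Hist1h3d is uncertain as a single gene too. Hist2h3c2 shares 63.5%, mostly with Hist2h3c1, Hist2h3b and the gene model Gm20634.

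Histone transcripts were far more abundant after induction of FL, C3+14 and C1C3a than in mCherry, intermediate in C1C3b, and close to mCherry in C1C3c and C1+14. The summed normalised count of the members was 26140 and 20203 in the FL libraries, 20159 and 18678 in C3+14, 1003 and 823 in C1+14, 34520 and 31984 in C1C3a, 3614 and 3944 in C1C3b, 1535 and 1198 in C1C3c, and 1096 and 1110 in mCherry. The C1C3a libraries were the highest, and both FL libraries lay above both C3+14 libraries, the nearest by a small margin. C1C3b lay apart from all other groups, and C1+14 was just below mCherry. The ratio of group means to mCherry was 21.01 for FL, 17.6 for C3+14, 30.1 for C1C3a, 3.43 for C1C3b, 1.24 for C1C3c and 0.828 for C1+14. The 18 members that share under 25% of their 50-base stretches, Hist1h3d among them, gave lower ratios. These were 17.9 for FL, 16.1 for C3+14, 26.6 for C1C3a, 3.03 for C1C3b, 1.12 for C1C3c and 0.816 for C1+14.

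Scaling changed the size of these ratios but not the order of the 3 strongest groups against the rest. As RPM (reads scaled to a common library total), the sum was 546 ± 7.69 in FL (SD, n = 2), 547 ± 34.2 in C3+14, 51.7 ± 7.57 in C1+14, 861 ± 137 in C1C3a, 75.8 ± 11.4 in C1C3c, 172 ± 12.3 in C1C3b and 53.6 ± 0.564 in mCherry. The ratio to mCherry was then 16.1 for C1C3a, 10.2 for both FL and C3+14, 3.21 for C1C3b, 1.41 for C1C3c and 0.964 for C1+14. For sums no test is given, because the smallest p of an exact permutation test with 2 libraries a side is 0.33. In bulk RNA, more cells with histone transcripts and more transcripts per cell cannot be told apart.

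**Figure D1:**
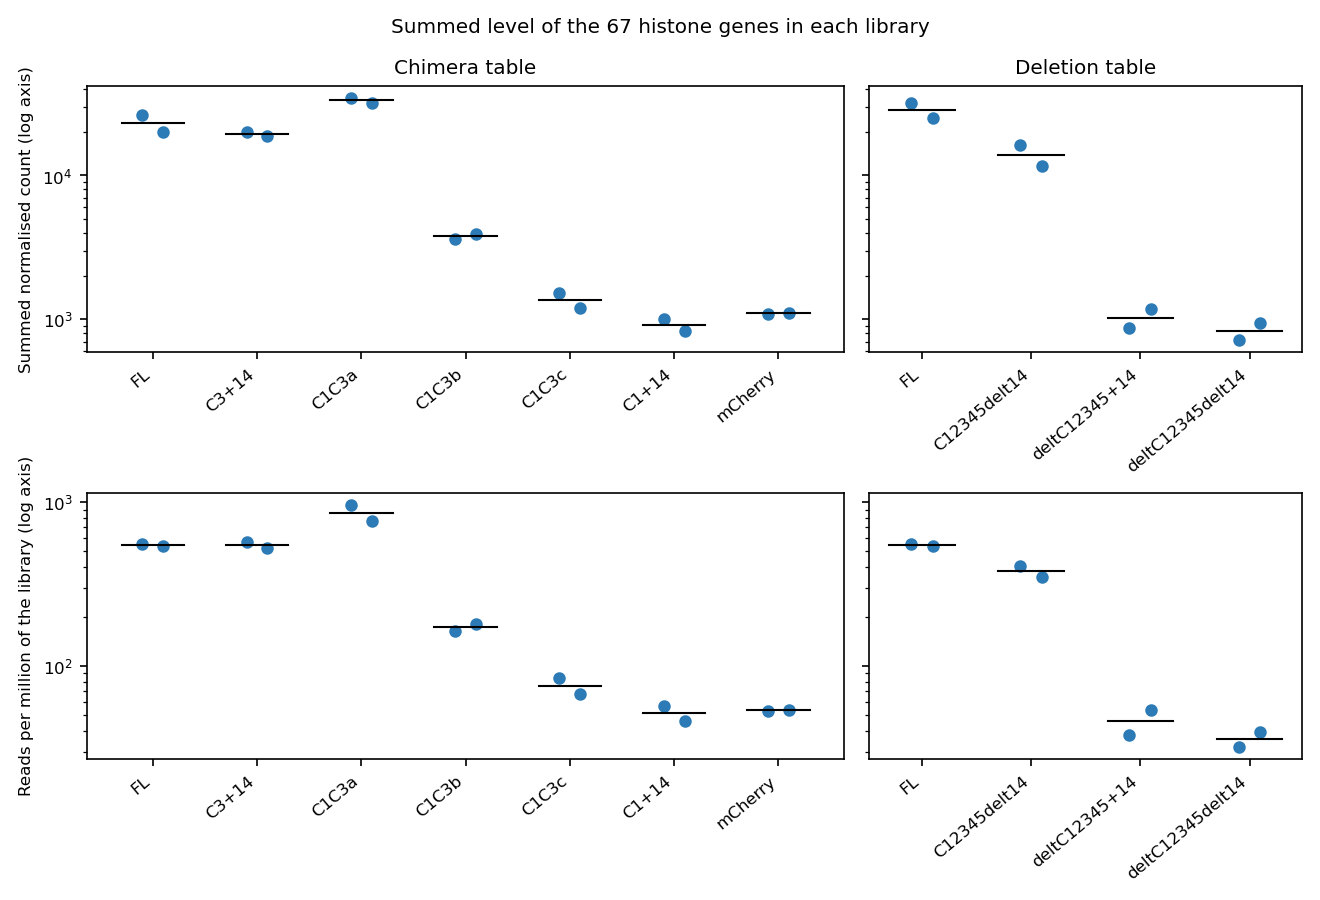
Summed level of the 67 histone genes in each library, as normalised count and as RPM (log axes), in the chimera table and the deletion table. Points are libraries and lines are means of 2 libraries, with C1C3a, FL and C3+14 highest in the chimera table and C1C3b at 3614 and 3944 between them and its remaining groups. In the deletion table C12345delt14 is below FL and the 2 deltC12345 constructs are far below both.

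The mix of histone types differed as well. In mCherry cells the H2B genes held 67.3% ± 0.808 (SD, n = 2) of the summed count, and a single gene, Hist1h2bc, held 36.3% ± 0.961. In FL the H3 genes held 39.6% ± 3.48, H2B 25.4% ± 1.57, H4 20.4% ± 1.29, H2A 11.4% ± 0.411 and H1 3.29% ± 0.231, and Hist1h2bc held 3.83% ± 0.972. Such shares depend on how reads that match several copies were counted. Without Hist1h2bc the FL sum was 31.7 times that of mCherry. In C1C3b the Hist2 cluster, mostly Hist2h3c2, held 19.0% ± 1.03 of the sum, against 1.54% ± 0.586 in FL and 3.68% ± 0.0983 in C3+14. The Hist2 sum itself overlapped between C1C3b and C3+14, while the sum over all members was far lower in C1C3b.

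**Figure D2:**
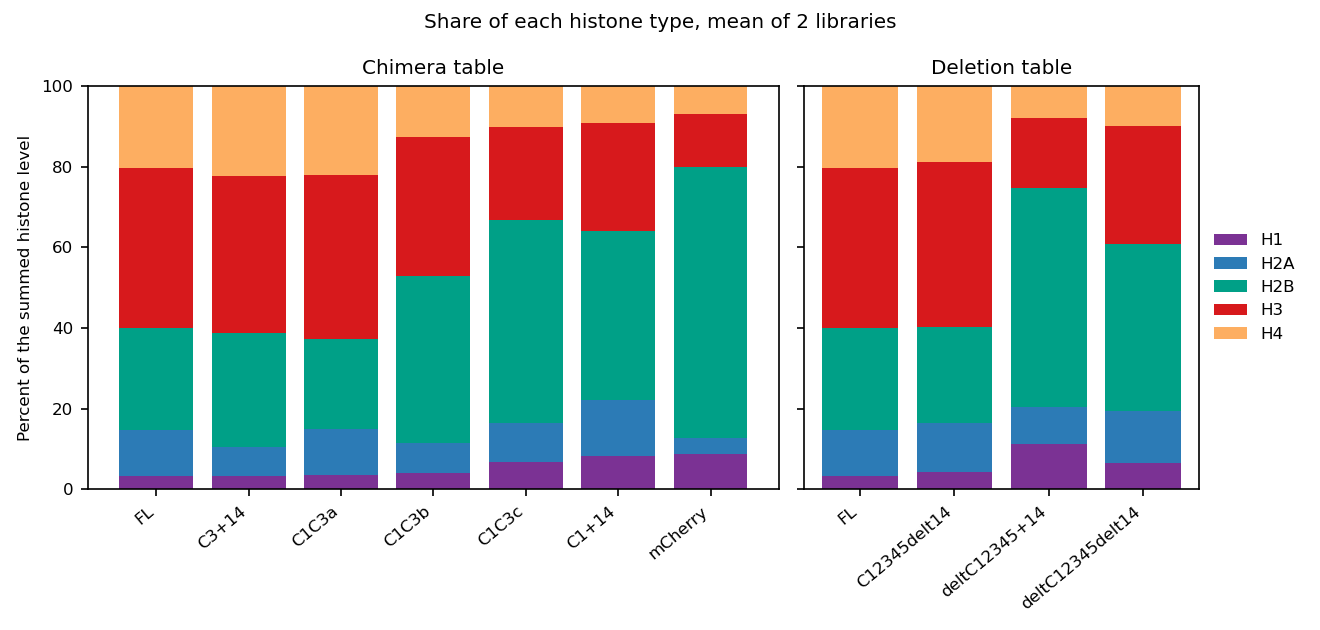
Share of the summed histone level, in percent, held by the H1, H2A, H2B, H3 and H4 genes in each group, as the mean of 2 libraries, with H2B at 67.3% in mCherry and H3 at 39.6% in FL.

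Per kilobase of exon, the level in FL was highest for Hist1h3h, at 3895 normalised counts per kb. Hist1h4n was at 2026, Hist1h2bj at 1546, Hist1h2ah at 1120 and Hist1h1a at 264, each the highest of its type in the Hist1 cluster by its mean over all libraries. In mCherry the order was different. Hist1h2bc was the highest member there, at 346 normalised counts per kb, against 785 in FL. Hist1h3h was at 64.8, Hist1h2bj at 22.1, Hist1h2ah at 15.3, Hist1h4n at 12.9 and Hist1h1a at 11.1. Hist2h3c2, the highest H3 gene of the Hist2 cluster, was at 281 in FL, 591 in C1C3b and 7.05 in mCherry. The annotated exon lengths behind these levels run from 312 to 7425 bp.

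FL against mCherry compares cells induced for full-length DUX with cells induced for the tag alone. The 2 groups also differ in the share of high-copy reads and may differ in clone, which the labels do not give. H4, H3 and H2A genes of the Hist1 cluster rose most, H1 and H2B genes less. Hist1h4n, an H4 gene (chromosome 13, 21831767 to 21832196), had 1058 and 684 normalised counts in FL against 5.94 and 5.15 in mCherry. Hist1h3c, an H3 gene, had 1269 and 1068 against 9.24 and 13.7. Hist1h3d, another H3 gene at 23575763 to 23577011, had 1630 and 1438 against 19.1 and 17.2. The FL and mCherry libraries were far apart for all 3. Differences are on the log2(value + 1) scale, on which low genes change less than they do in counts. Hist1h4n was higher by 7.03 (SE 0.52, limma adjusted p = 9.8e-08), Hist1h3c by 6.57 (SE 0.26, limma adjusted p = 1.7e-10) and Hist1h3d by 6.32 (SE 0.19, limma adjusted p = 1.1e-11). A gene was called at an adjusted p under 0.05, over all genes tested, and a log2 change of at least 1.

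By that rule 56 of 58 members were higher in FL and 0 were lower, where 24.5% of all 21584 genes tested were called higher and 19.6% lower. The median log2 difference of the members was 5.12, against 0.09 over all genes. All 5 tested H1 genes were called higher (median 4.13), as were 12 of 13 H2A (5.73), 16 of 17 H2B (3.71), 10 of 10 H3 (5.82) and 13 of 13 H4 genes (5.62). All 52 tested Hist1 members were called higher, with a median of 5.78 in the first block and 4.75 in the second. Among them Hist1h4b rests on 4 and 3 reads in FL against 0 in both mCherry libraries. Hist1h2ak, Hist1h2ac, Hist1h4f, Hist1h2bf and Hist1h2ba reached a value of 10 only in FL, C3+14 or C1C3a libraries. They passed the filter through groups where they were high, so their direction was largely set by the filter. The same holds for them in the counts of C3+14 and C1C3a given below, and in that of C1C3b against FL. The members not called were Hist2h2be, an H2B gene with 29.5 and 20.2 in FL against 18.5 and 18.9 in mCherry, and Hist3h2a, an H2A gene with 14.7 and 3.57 against 4.62 and 2.57. The testis H2B gene Hist1h2ba had 53.0 and 47.6 against 2.64 and 0, and rose by 4.75 (SE 0.68, limma adjusted p = 5.0e-05). It shares 38.2% of its 50-base stretches with other genes, among them the far more abundant Hist1h2bj, so it is uncertain as a single gene.

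The H2B gene Hist1h2bc and the H1 gene Hist1h1c were the members with the smallest relative change among the abundant ones. Hist1h2bc (chromosome 13, 23684199 to 23692908) had 1180 and 634 in FL against 390 and 410 in mCherry. Its log2 difference was 1.11 (SE 0.26, limma adjusted p = 0.0022), 0.66 (adjusted p = 0.031) without FL replicate 1, which ends the call, and 0.08 when reads were scaled to library totals. Hist1h1c, a linker histone gene expressed in many tissues, had 458 and 333 in FL against 64.0 and 90.9 and rose by 2.34 (SE 0.39, limma adjusted p = 0.00016). The linker gene Hist1h1b reached only 13.3 and 13.1 in FL against 5.28 and 4.29, and its call at a log2 difference of 1.30 was lost with any 1 of the 4 libraries left out.

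Members with different annotated 3′ ends rose in FL. The 12 tested members with AATAAA after the stem-loop had a median log2 difference of 3.27 and 11 were called higher. The 19 tested members whose annotated transcript stops within 60 bases of the stem-loop had a median of 5.62, and all 19 were called. The 21 that run on for over 100 bases had a median of 4.63 with 20 called, and the 17 without a stem-loop in the annotated transcript had 4.75 with 16 called. All members with AATAAA after the stem-loop are among those that run on for over 100 bases.

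Some RNAs outside the histones that normally carry no tail were also higher in FL, C3+14 and C1C3a. Rn7sk, the 7SK RNA, had 2864 and 2478 normalised counts in FL, 3078 and 2760 in C3+14, 14.6 and 3.72 in C1+14, 859 and 814 in C1C3a, 60.5 and 36.6 in C1C3b, 120 and 15.6 in C1C3c, and 6.60 and 12.0 in mCherry. Of 11 such RNAs listed, 4 were tested (Rn7sk, Rny1, Rn7s1 and Rn7s2), and the number called higher was 4 for FL, 3 for C3+14, 2 for C1C3a, 1 each for C1C3b and C1C3c, and 0 for C1+14. Over all genes the share called higher in these groups ran from 12.4% in C1+14 to 29.6% in C3+14. The order of the groups was not that of the histone sums: C1C3a was below FL and C3+14, and C1C3b did not exceed C1C3c beyond the spread of its libraries. Rn7sk rose by 8.07 in FL (SE 0.72, limma adjusted p = 6.3e-07). The part of carry-over of untailed RNA in the histone result was not tested. Rn7sk was singled out after its values were seen.

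C3+14 against mCherry compares 2 groups whose libraries are alike in the share of high-copy reads. In C3+14, 56 of 58 members were higher, where 29.6% of all genes were, and the median was 4.56, against 0.23 over all genes. All 5 H1, 13 H2A, 10 H3 and 13 H4 genes tested were called, and 15 of 17 H2B genes. Hist1h4n had 715 and 666 normalised counts (log2 difference 6.73, SE 0.52, limma adjusted p = 1.5e-07) and Hist1h3d had 1176 and 1098 (log2 difference 5.89, SE 0.19, limma adjusted p = 2.8e-11). Hist1h2bc, with 727 and 688, missed the fold threshold at 0.82 (limma adjusted p = 0.013), and Hist2h2be, with 57.0 and 59.9, missed the p threshold at 1.59 (limma adjusted p = 0.054).

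Set directly against FL, C3+14 showed 4 of 58 members higher and 1 lower, where 16.8% and 9.54% of all genes were. The 5 calls became 3 without either FL library and 2 without either C3+14 library. The higher ones were the members outside the Hist1 cluster Hist3h2ba, Hist3h2a and Hist2h3c2, and the low-count gene Hist1h4b. Hist1h4b passed the filter only through C3+14 and C1C3a, where it was high. Hist3h2ba, an H2B gene (chromosome 11, 58948920 to 58949533), had 179 and 181 in C3+14 against 39.8 and 70.2 in FL, and rose by 1.75 (SE 0.40, limma adjusted p = 0.0039). Hist2h3c2, an H3 gene (chromosome 3, 96238108 to 96239127), had 593 and 557 against 228 and 345. Its difference of 1.03 (SE 0.35, limma adjusted p = 0.030) lost the call without FL replicate 1 (0.73), C3+14 replicate 1 (0.99, adjusted p = 0.13) or C3+14 replicate 2 (1.08, adjusted p = 0.10).

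Hist3h2a had 36.9 and 38.9 in C3+14, above 14.7 and 3.57 in FL, and its difference of 2.20 (SE 0.69, limma adjusted p = 0.022) lost the call without FL replicate 2 (1.30), C3+14 replicate 1 (adjusted p = 0.079) or C3+14 replicate 2 (adjusted p = 0.094). The member lower in C3+14 was the H2A gene Hist1h2ai, with 186 and 157 against 467 and 307. Its difference of -1.14 (SE 0.43, limma adjusted p = 0.049) lost the call without FL replicate 1 (-0.84), C3+14 replicate 1 (adjusted p = 0.11) or C3+14 replicate 2 (adjusted p = 0.20). The H2A genes had a median difference of -0.94, and their sum was 1515 and 1341 in C3+14 against 3045 and 2236 in FL. The sum over all members was 0.838 of FL as normalised counts and 1.00 as RPM, so the direction between these 2 groups depends on the scaling.

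C1C3a had the highest histone levels of the table. Against mCherry 56 of 58 members were higher, where 27.4% of all genes were, with a median of 5.67 against 0.12 over all genes. Hist1h4n had 1199 and 1359 (log2 difference 7.61, SE 0.52, limma adjusted p = 3.7e-08), Hist1h3d had 2201 and 2214, and Hist1h4i, an H4 gene at 22040636 to 22041362, had 2008 and 1945. The members not called were Hist1h2bc (784 and 725, log2 difference 0.91) and Hist2h2be (32.1 and 24.1, log2 difference 0.55). The call of Hist3h2a at 1.88 was lost with any 1 of the 4 libraries left out. Against C1+14, all 58 tested members were higher, where 23.4% of all genes were, with a median of 5.10 and a ratio of sums of 36.4, or 16.7 as RPM.

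C1C3a was also set directly against FL, a comparison added after the data were seen. Of 58 members 5 were higher in C1C3a, where 11% of all genes were, and 0 were lower. The 5 became 3 without C1C3a replicate 1. The median was 0.53, 56 members had a positive difference, and the sum was 1.44 times that of FL, or 1.58 times as RPM. The 5 were Hist1h1b, Hist1h4b, Hist3h2ba, Hist2h4 and Hist1h3g. Hist1h1b had 76.4 and 79.3 against 13.3 and 13.1 in FL (log2 difference 2.47, SE 0.49, limma adjusted p = 0.0026). Hist3h2ba had 306 and 243 against 39.8 and 70.2 (log2 difference 2.34, SE 0.40, limma adjusted p = 0.0011).

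For Hist2h4, with 110 and 93.4 in C1C3a against 33.9 and 26.2 in FL, the difference of 1.73 (SE 0.52, limma adjusted p = 0.028) did not pass with any 1 library left out (1.55 to 1.91, adjusted p 0.062 to 0.12). Hist1h4b and Hist1h3g were chosen after their values were seen. Hist1h4b had 0 reads in both mCherry libraries. Against the floor of 3 reads per library it was at least 2.08-fold higher in FL, at least 8.37-fold higher in C3+14 and at least 12.7-fold higher in C1C3a.

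**Figure D3:**
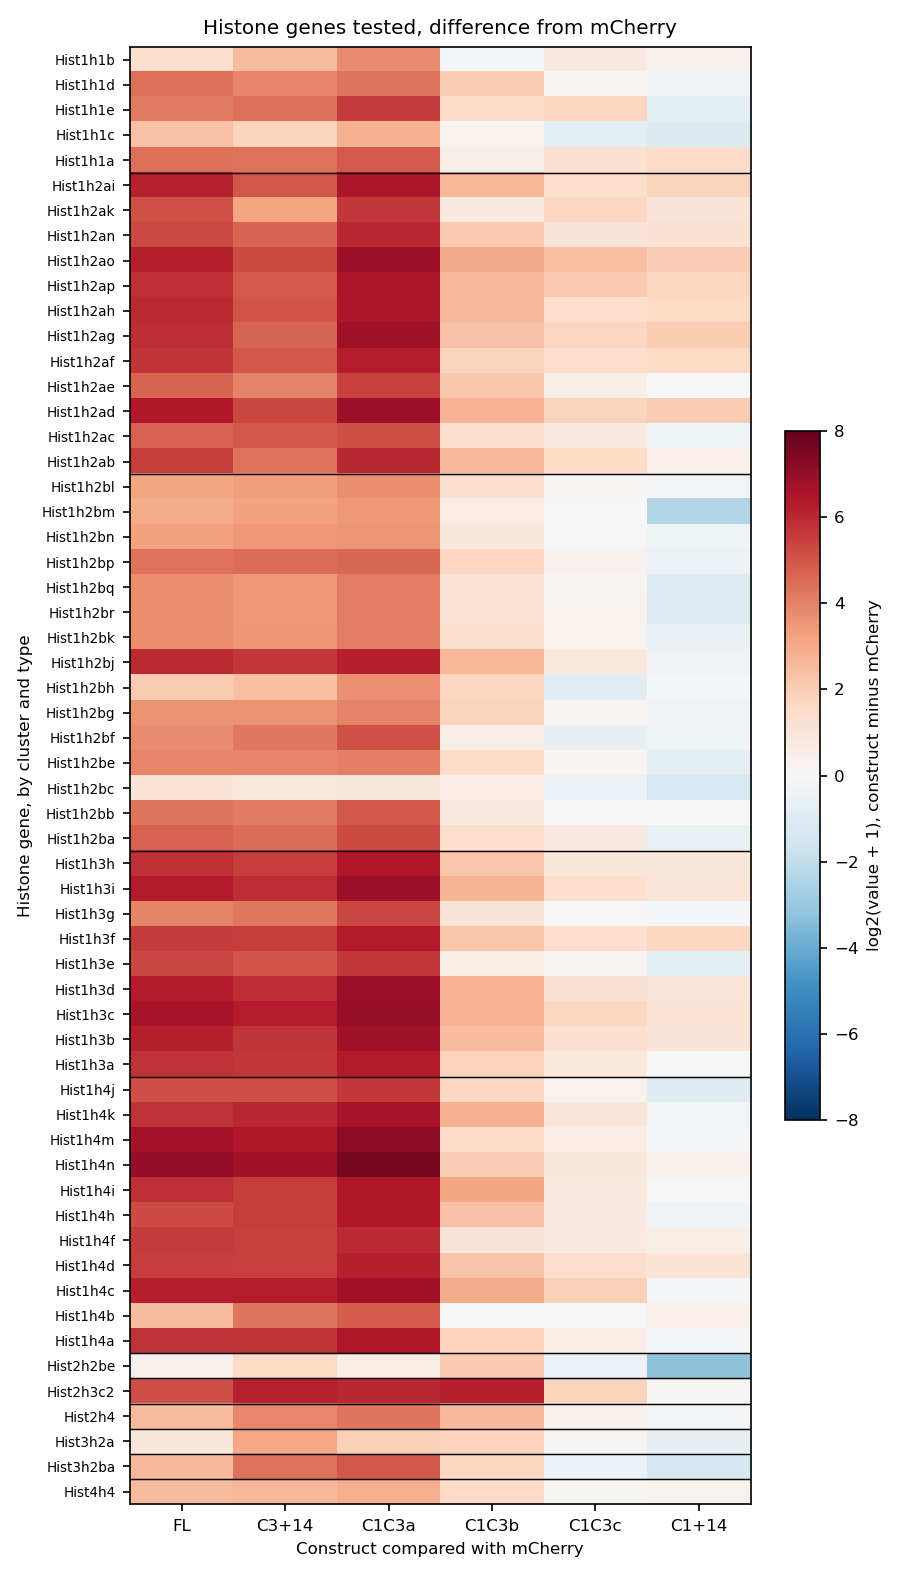
Difference of each construct from mCherry on the log2(value + 1) scale for the 58 tested histone genes (rows, ordered by cluster and type) in 6 constructs (columns). Most Hist1 members are strongly higher in FL, C3+14 and C1C3a, and the Hist2 member Hist2h3c2 is as high in C1C3b (6.24) as in C3+14 (6.18).

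In C1C3b the difference from mCherry was smaller and differently composed. Against mCherry 43 of 58 members were higher and 0 lower, where 27.6% of all genes were higher, and the median was 1.82 against 0.15 over all genes. Called were 1 of 5 H1 genes (Hist1h1d, 2.06), 11 of 13 H2A, 11 of 17 H2B, 9 of 10 H3 and 11 of 13 H4 genes. Hist1h3d had 152 and 111 normalised counts against 19.1 and 17.2 in mCherry (log2 difference 2.77, SE 0.19, limma adjusted p = 9.8e-08). Hist1h4i had 166 and 256 against 24.4 and 19.7 (log2 difference 3.17, SE 0.25, limma adjusted p = 2.6e-07). Quantile normalisation left 20 members higher and 1 lower. Against C1+14, 41 of 58 were higher, where 17.9% of all genes were, with a median of 1.71.

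Of the Hist2 cluster only Hist2h3c2, Hist2h2be and Hist2h4 were tested, and Hist2h3c2 made up most of the cluster's sum in C1C3b. Hist2h3c2 had 534 and 671 in C1C3b against 9.24 and 5.15 in mCherry, a log2 difference of 6.24 (SE 0.35, limma adjusted p = 1.2e-08), and exceeded 228 and 345 in FL. Hist2h2be had 93.8 and 71.3 in C1C3b, the highest values of any group in the table, against 18.5 and 18.9 in mCherry. That difference of 2.07 (SE 0.67, limma adjusted p = 0.017) lost the call without C1C3b replicate 1 (1.88, adjusted p = 0.090), mCherry replicate 1 (adjusted p = 0.067) or mCherry replicate 2 (adjusted p = 0.064). Hist2h4, the H4 gene of the cluster, had 28.1 and 35.7 against 1.98 and 8.58 and rose by 2.61 (SE 0.52, limma adjusted p = 0.00079). The sum of the cluster was 660 and 778 in C1C3b, 293 and 394 in FL, 727 and 700 in C3+14, 793 and 529 in C1C3a, and 29.7 and 34.3 in mCherry. C1C3b thus overlapped C3+14 and C1C3a in this sum.

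The direct comparison of C1C3b with FL was added after the data were seen. Of 58 members 50 were lower in C1C3b and 2 higher, where 19.7% and 23.3% of all genes were, with a median of -3.17 against -0.09 over all genes. All 50 lower members were in the Hist1 cluster, of which 52 were tested. The 2 higher members were Hist2h2be and Hist2h3c2. Hist1h4n had 31.6 and 18.8 against 1058 and 684 (log2 difference -5.07, SE 0.52, limma adjusted p = 3.2e-06), and Hist1h4m had 17.5 and 11.3 against 712 and 400 (log2 difference -5.15, SE 0.53, limma adjusted p = 3.4e-06).

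For Hist2h3c2 the difference from FL was 1.09 (SE 0.35, limma adjusted p = 0.015), which lost the call without FL replicate 1 (0.79, adjusted p = 0.12) or C1C3b replicate 2 (0.93, adjusted p = 0.10). For Hist2h2be it was 1.70 (SE 0.67, limma adjusted p = 0.042), and no call was left with any 1 of the 4 libraries left out (1.44 to 1.96). Hist2h4 differed by 0.08. The members not called were Hist2h4, Hist3h2a, Hist3h2ba, Hist4h4 and, in the Hist1 cluster, Hist1h2bc (498 and 746 against 1180 and 634, log2 difference -0.50) and Hist1h2bh (log2 difference -0.40), an H2B gene named here after its values were seen. Counts of lower members were 50 with quantile normalisation, 46 with library totals, 49 with edgeR and 49 with DESeq2. The 19 members that stop within 60 bases of the stem-loop were all lower (median -3.31), and of the 12 with AATAAA after it 7 were lower (median -2.18).

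**Figure D4:**
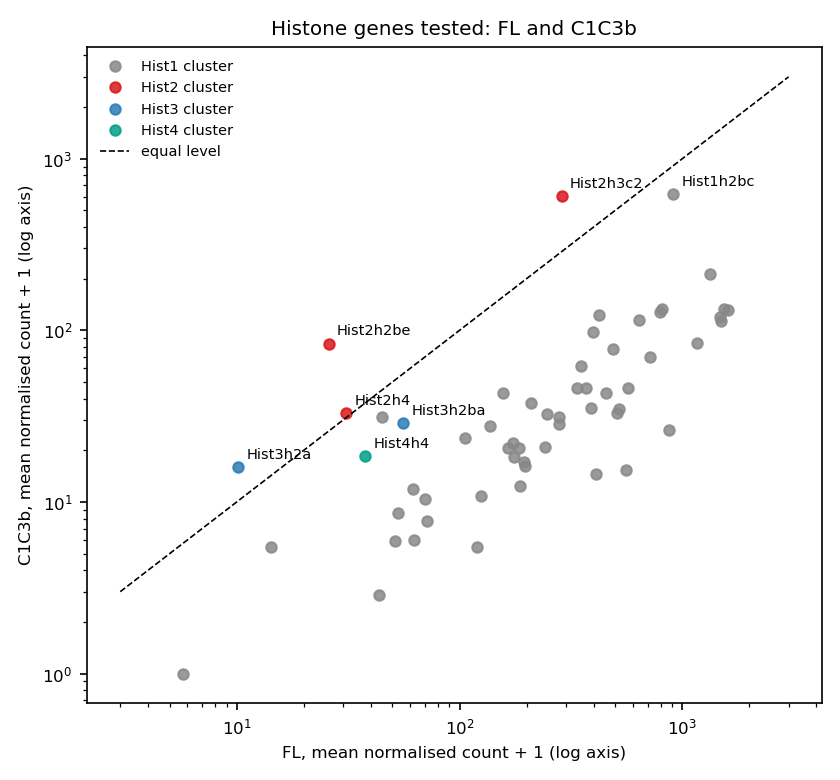
Mean normalised count plus 1 of each tested histone gene in FL (horizontal) and C1C3b (vertical), both on log axes, coloured by cluster, with the dashed line at equal values. All 52 Hist1 genes lie below the line, with Hist1h2bc close to it (log2 difference -0.50). Hist2h3c2, Hist2h2be, Hist3h2a and, only just, Hist2h4 lie above it.

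Markers of other cell types were also higher in C1C3b, and in other groups. Of 6 fibroblast markers 4 were higher and 1 lower than in mCherry, with sums of 179 and 168 against 61.4 and 78.9, and the counts were also 4 and 1 in C3+14, with sums of 147 and 175. Over all genes 27.6% were called higher and 17.1% lower in C1C3b, and 29.6% and 17.7% in C3+14. In C1C3b Lum had 84.2 and 40.4 against 0 in both mCherry libraries, while Col1a1 had 5.26 and 8.45 against 45.5 and 53.2. Of 5 endoderm markers 4 were higher in C1C3b, with sums of 520 and 564 against 63.3 and 75.5 in mCherry and 88.4 and 88.1 in FL. The endoderm sum was 461 and 402 in C3+14, 454 and 251 in C1C3a, and between 156 and 208 in C1C3c and C1+14. Their part in the histone result was not tested.

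C1C3c and C1+14 had member sums close to that of mCherry. In C1C3c 14 of 58 members were higher and 0 lower than in mCherry, where 18.3% of all genes were higher, so the share of members was near that of all genes. The median was 0.72 against 0.01 over all genes, and 6 of 10 H3 genes, 6 of 13 H2A genes, 1 H1 gene, 1 H4 gene and 0 of 17 H2B genes were called. Hist1h3d had 43.7 and 41.9 against 19.1 and 17.2 (log2 difference 1.20, SE 0.19, limma adjusted p = 0.00030). Hist2h3c2 had 33.2 and 20.96 against 9.24 and 5.15 (log2 difference 1.79, SE 0.35, limma adjusted p = 0.0011). With quantile normalisation 2 members were higher and 2 lower, and with library totals 20 were higher.

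In C1+14, 11 of 58 members were higher and 7 lower than in mCherry, where 12.4% and 5.95% of all genes were. The 18 calls became 9 without C1+14 replicate 1, 9 without mCherry replicate 1, 7 without mCherry replicate 2 and 9 with the 2 groups fitted alone. The median was -0.08. Of 13 H2A genes 6 were higher and none lower, with a median of 1.60, and the H2A sum was 150 and 108 against 44.9 and 39.5. Of 17 H2B genes 6 were lower and none higher, with a median of -0.58, and the H2B sum was 441 and 326 against 744 and 741. The direction of the 2 types was the same with quantile normalisation (H2A 1 higher, median 0.79, and H2B 6 lower, median -0.86) and with library totals (H2A 8 higher, median 1.87, and H2B 2 lower, median -0.41), but the split over all members moved to 1 higher and 8 lower and to 16 higher and 2 lower.

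Among the H2A genes Hist1h2ad had 32.2 and 20.5 in C1+14 against 5.28 and 6.0 in mCherry (log2 difference 2.01, SE 0.44, limma adjusted p = 0.0042). These rest on 44 and 33 reads against 8 and 7, and Hist1h2ad was chosen after its values were seen. Among the H2B genes Hist1h2bc had 198 and 153 against 390 and 410 and fell by 1.19 (SE 0.26, limma adjusted p = 0.0038), or by 0.98 with library totals. Hist2h2be, with 3.65 and 0 against 18.5 and 18.9, fell by 3.19 (SE 0.67, limma adjusted p = 0.0033). Hist1h2bq, with 34.4 and 24.2 against 60.7 and 58.3, fell by 1.02 (SE 0.24, limma adjusted p = 0.0056), a call lost without C1+14 replicate 2 (-0.78) or mCherry replicate 1 (-0.99). The linker gene Hist1h1c, with 26.3 and 46.5 against 64.0 and 90.9, fell by 1.10 (SE 0.39, limma adjusted p = 0.045), a call lost without C1+14 replicate 1 (-0.70), mCherry replicate 1 (adjusted p = 0.074) or mCherry replicate 2 (-0.85).

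C1+14 and mCherry differ in the share of high-copy reads, and the part of that share in their difference was not tested. In the deletion table deltC12345+14 and deltC12345delt14 each have 1 library with a high and 1 with a low share. The H2A sum was 113.6 in the deltC12345+14 library with the high share and 64.6 in the other, and 104 and 108 in the same order in deltC12345delt14. The H2B sum was 407 in the deltC12345+14 library with the high share and 737 in the other, and 384 and 301 in deltC12345delt14. The sum over all members in the library with the high share was 0.742 and 1.32 times that in the other library of these constructs. With 1 library a side, these values do not separate the share of high-copy reads from the spread between libraries.

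C1C3c exceeded C1+14 in 7 of 58 members, where 5.37% of all genes were called higher and 2.46% lower, and 0 members were lower. They were Hist2h2be, Hist1h1e, Hist1h2bm, Hist2h3c2, Hist1h2br, Hist1h2bq and Hist1h4k. The near-identical Hist1h2br and Hist1h2bq had almost the same reads (108 and 94, and 103 and 92, in C1C3c), so they may not be separate calls. In C1+14 Hist1h1e had 0 and 3 reads, Hist1h2bm 2 and 0, and Hist2h2be 5 and 0. Hist2h3c2 had 33.2 and 20.96 against 8.04 and 6.82 (log2 difference 1.70, SE 0.35, limma adjusted p = 0.0069), a call lost without C1+14 replicate 2 (1.60, adjusted p = 0.051). Hist2h2be had 24.1 and 6.76 against 3.65 and 0, and its difference of 2.69 (SE 0.67, limma adjusted p = 0.019) lost the call without C1C3c replicate 1 (1.85) or C1+14 replicate 2 (1.59). Hist1h1e, Hist1h2bm and Hist1h4k were chosen after their values were seen. The 7 calls became 2 without C1+14 replicate 2, and with the 2 groups fitted alone limma called 0 of the 58 members.

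The deletion table compares FL with constructs that lack the parts written 14, C12345 or both. C12345delt14 retained much of the histone level and both deltC12345 constructs lost nearly all of it. The member sum was 32150 and 25271 in FL, 16199 and 11635 in C12345delt14, 876 and 1181 in deltC12345+14, and 717 and 944 in deltC12345delt14. C12345delt14 lay below FL and far above both deltC12345 constructs, which overlapped. The ratio of means to FL was 0.485, 0.0358 and 0.0289, or 0.694, 0.0841 and 0.0654 as RPM. The mCherry libraries were scaled in the other table, so no test was made against them. As RPM, which does not depend on that scaling, the sums were 407 and 351 in C12345delt14, 38.1 and 53.8 in deltC12345+14, 32.0 and 39.5 in deltC12345delt14, and 53.2 and 54.0 in mCherry. The untailed Rn7sk had 3523 and 3100 normalised counts in FL, 594 and 289 in C12345delt14, 6.31 and 46.0 in deltC12345+14, and 27.9 and 4.97 in deltC12345delt14, and the part of carry-over was not tested here either.

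In C12345delt14, limma called 0 of 57 members higher and 0 lower, where 0.338% and 0.62% of all 19833 genes were called. The median of the members was -1.08, and 4 of 57 differences were above 0. At an unadjusted p under 0.05 there were 18 members, and 4935 of all genes. edgeR called 0, DESeq2 called 15, all lower, and limma fitted on these 2 groups alone called 20. Hist1h4i had 893 and 711 against 1754 and 1537 (log2 difference -1.04, SE 0.46, limma adjusted p = 0.21). Hist1h2bc had 454 and 394 against 1452 and 794 (log2 difference -1.34, SE 0.37, limma adjusted p = 0.093). The FL and C12345delt14 libraries did not overlap for either gene. Hist2h3c2, with 347 and 268 against 281 and 432, overlapped and differed by -0.19. The median differences were alike between types, at -1.07 for H1, -1.04 for H2A, -1.16 for H2B, -1.02 for H3 and -1.27 for H4.

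In deltC12345+14, 53 of 57 members were lower than in FL and 0 higher, where 20% of all genes were lower, with a median of -5.10. In deltC12345delt14, 55 of 57 were lower and 0 higher, where 20.3% of all genes were lower, with a median of -4.93. Hist1h4n, Hist1h4m, Hist1h4j, Hist1h4k, Hist1h4c, Hist1h4f, Hist1h2ak, Hist1h2ag, Hist1h2ac, Hist1h2ab, Hist1h2bf and Hist1h1d, among others, reached a value of 10 only in FL and C12345delt14. They passed the filter through those groups, so their lower direction in both deltC12345 constructs was largely set by the filter. Hist1h4n had 2.81 and 1.44 in deltC12345+14 and 7.39 and 9.94 in deltC12345delt14, against 1301 and 856 in FL. Its differences were -8.44 (SE 0.43, limma adjusted p = 4.1e-06) and -6.78 (SE 0.43, limma adjusted p = 1.4e-05). Hist1h3d had 25.9 and 26.6, and 25.4 and 46.4, against 2004 and 1799.

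By type, the medians in deltC12345+14 and deltC12345delt14 were -4.15 and -4.12 for H1, -5.14 and -4.90 for H2A, -4.07 and -4.55 for H2B, -6.05 and -5.52 for H3, and -6.04 and -6.06 for H4. The members not called in deltC12345+14 were Hist2h2be (11.9 and 15.1 against 36.2 and 25.3, log2 difference -1.12, limma adjusted p = 0.070), Hist2h4, Hist3h2a and Hist1h2bm. Those in deltC12345delt14 were Hist2h2be (21.3 and 16.6, log2 difference -0.66) and Hist3h2a. The calls of Hist4h4 in deltC12345+14 (-2.81) and of Hist2h4 in deltC12345delt14 (-1.80) were lost with any 1 library left out. Members at very few reads have wide ratios: Hist1h4m had 3 and 0 reads in deltC12345+14 against 483 and 336 in FL, a ratio of 629 (95% counting interval 214 to 3056).

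Between deltC12345+14 and deltC12345delt14, limma called 0 of 57 members and 0% of all genes, with 10 members and 543 genes at an unadjusted p under 0.05. edgeR called 0 members and DESeq2 called 1. The median of the members was -0.07. Hist1h1c had 85.6 and 102 in deltC12345+14 against 30.4 and 24.0 in deltC12345delt14, groups that did not overlap, and its difference of 1.75 had a limma adjusted p of 1. Hist1h2bc had 175 and 320 against 137 and 101. Each of these 2 groups holds 1 library with a high and 1 with a low share of high-copy reads.

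**Figure D5:**
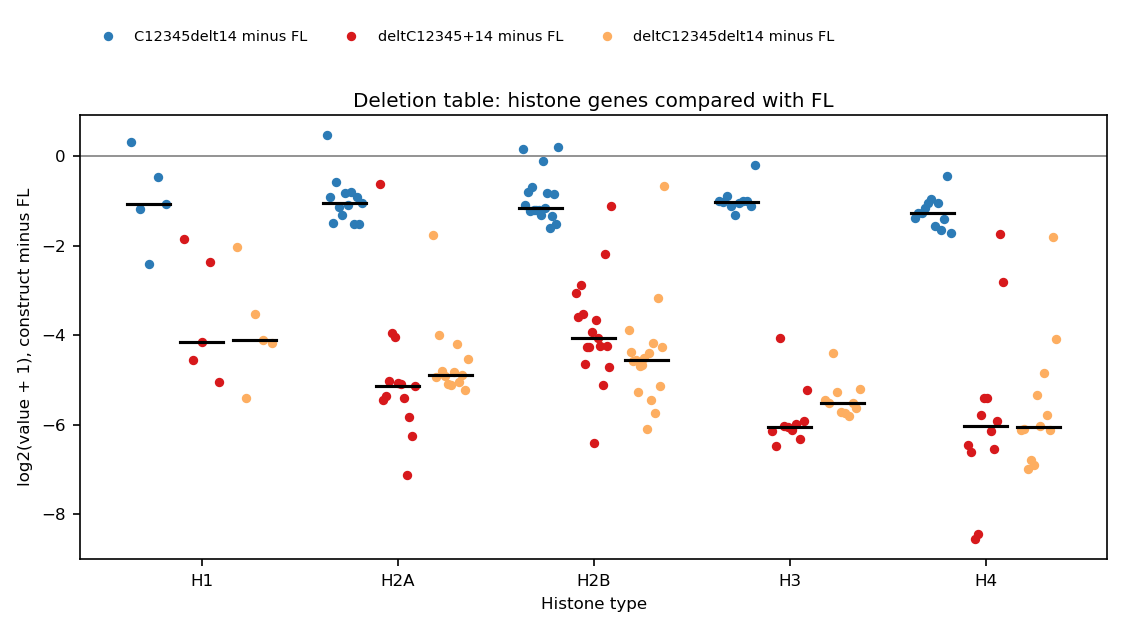
Difference from FL on the log2(value + 1) scale for each tested histone gene, by type, in the 3 constructs of the deletion table, where bars are medians. Members of C12345delt14 lie around -1.08 and those of both deltC12345 constructs around -5.10 and -4.93.

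Of 24 listed factors that transcribe, process or degrade histone mRNA, 0 were higher and 6 lower in FL than in mCherry, with a median of -0.36, where 24.5% of all genes were higher and 19.6% lower, so the share that fell was near that of all genes. The 6 were Npat, Casp8ap2, Lsm10, Zfp473, Hinfp, an activator of H4 genes, and Pou2f1, the octamer-binding factor of H2B genes. Npat, the co-activator of the histone locus body, had 483 and 507 in FL against 1139 and 1198 in mCherry (log2 difference -1.24, SE 0.18, limma adjusted p = 5.1e-05). Casp8ap2 had a log2 difference of -1.69 (limma adjusted p = 0.00033) and Lsm10 had a difference of -1.06 (limma adjusted p = 0.0018). Lsm11 at -0.68 and Eri1, an exonuclease that trims histone mRNA, at -0.52 did not pass the fold threshold.

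Slbp, the stem-loop binding protein, had 2807 and 2619 in FL against 2401 and 2236 in mCherry (log2 difference 0.23, limma adjusted p = 0.067). As a share of all reads Slbp was lower in FL than in mCherry, so that direction depends on the scaling. Slbp was high in C1C3b, with 7729 and 8065 (log2 difference 1.77, SE 0.10, limma adjusted p = 1.5e-08), and in C3+14, with 6601 and 7293. In C1C3a, where the histone sum was highest, Slbp had 4303 and 4032. Against FL, C1C3b had 5 of the 24 factors higher (Slbp, Npat, Casp8ap2, Cpsf2 and Pou2f1) and 0 lower, where 23.3% of all genes were higher. Zfp473 was lower than in mCherry in all 6 constructs, with 72.2 and 64.3 in FL and 627 and 614 in mCherry, and was singled out after its values were seen.

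S-phase genes were read from a list of 24. Of these, 0 were higher and 6 lower in FL than in mCherry: Ccne1, Ccne2, Cdc6, Cdt1, Rrm2 and E2f2. That share too was near the 19.6% of all genes called lower. The median was 0.33, and the list's summed count was 158628 and 134391 in FL against 118084 and 118777 in mCherry. The summed normalised count of all genes was 47395400 and 37367400 in FL against 20588200 and 20544800 in mCherry. As a share of all reads the list was thus lower in FL, so its direction depends on the scaling. In C3+14 2 were higher and 4 lower (median 0.02), in C1C3a 1 and 3 (0.27), in C1C3b 2 and 7 (-0.56), in C1C3c 0 and 7 (-0.51), and in C1+14 0 and 2 (-0.36). Over all genes the share called lower in these 5 groups ran from 5.95% in C1+14 to 19% in C1C3a. The largest fall in FL was of E2f2 (-3.53, limma adjusted p = 2.8e-06), an E2F factor.

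Most replacement and variant histones are made from polyadenylated mRNA, and the genes listed here fall outside the rule. Of 11 tested, 1 was higher in FL and 0 were lower, where 24.5% and 19.6% of all genes were, with a median of 0.44. H2afz was at 0.44, H2afx at 0.82, H3f3a at 0.53, H3f3b at -0.13, H1f0 at -0.69 and the centromeric Cenpa at -0.37. As shares of all reads, H2afz and H3f3a were lower in FL than in mCherry, so the sign of such small differences depends on the scaling. The gene that rose was the linker variant H1fx, with 1076 and 1288 in FL, 410 and 468 in C3+14, 297 and 376 in C1+14, 1797 and 1978 in C1C3a, 528 and 652 in C1C3b, 477 and 289 in C1C3c, and 154 and 151 in mCherry. Its log2 difference in FL was 2.94 (SE 0.22, limma adjusted p = 1.1e-07). H1fx was singled out after its values were seen.

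Scaling shifts bear on all of these values. With library totals in place of size factors, the median over all genes moved from 0.09 to -0.90 in FL, from 0.23 to -0.56 in C3+14 and from 0.12 to -0.77 in C1C3a against mCherry, and from -0.09 to 0.84 in C1C3b against FL. The share of called genes that were higher went from 55.5% to 26.8% in FL against mCherry and from 54.2% to 82.6% in C1C3b against FL. The histone counts in FL, C3+14 and C1C3a against mCherry were then 53, 55 and 55 higher and 0 lower of 58.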

How the data were processed

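Poly(A) RNA from 500 ng of total RNA was made into stranded libraries, per the labels' protocols. The deposited values are a signal, labelled by the authors as normalised counts, with no method in the headers. Of 1220714 values, 100% were whole multiples of the value of 1 read in their library, within 0.001 read, so each library was taken as reads scaled by a single factor. The submitters' processing notes name Trim Galore 0.5.0, FastQC, DESeq2 and the build mm10. The aligner, the counter and how reads with several matches were handled are not given in the sources used here. The authors scaled the 2 tables separately, so tests stay within a table.

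Symbols came from GENCODE M21 and were found for 55227 of 55487 genes (99.5%). limma 3.58.1 (R 4.3.3; lmFit, eBayes with a trend) was fitted to log2(value + 1) of genes that reached 10 in 2 or more libraries, with all groups of a table in the fit. p-values were adjusted by Benjamini and Hochberg over all genes tested. A gene was called at an adjusted p under 0.05 and an absolute log2 difference of at least 1. Sums over members are of normalised counts or RPM (reads scaled to the library total). A library with 0 reads of a gene allows up to 3, which with the counting intervals (95%, exact) covers counting error only, since the reads carry no molecular identifiers. The limma fit was tested on simulated counts in which some genes were changed by known folds.

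Alternatives were other pseudocounts (0.1 and 8), no filter or a minimum of 50, quantile normalisation, library totals, edgeR 4.0.16 and DESeq2 1.42.0 on the recovered whole reads, the 2 groups alone, the replicate number as a block, and each library left out. Of 16 comparisons, 2 (C1C3a and C1C3b against FL) and the crossed replicate numbers were added after seeing the data.

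The members and lists were chosen with earlier results of these data known. Named members were a fixed set of 12, the highest per kilobase of exon in each type and cluster, and for each comparison up to 3 called members in each direction with the largest change, a mean of 50 or more where higher and groups that do not overlap. Others are named as such. Replicates differed beyond sampling noise (chi-square per gene 3.31 to 78.9), so none was merged.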

Additional observations from a re-analysis of the deposited data

How the results depend on the processing

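Among the named genes called in a comparison, none reversed direction there under any alternative, and 261 of the alternative values lost the call. Differences that were not called were left out of this check. The sum ratio of C3+14 to FL moved from 0.838 to 1.00 with library totals. With library totals the sum ratios to mCherry became 10.2 (FL), 10.2 (C3+14), 16.1 (C1C3a), 3.21 (C1C3b) and 0.964 (C1+14). Those to C1+14 became 16.7 (C1C3a) and 3.33 (C1C3b), and those to FL 0.694 (C12345delt14), 0.0841 (deltC12345+14), 0.0654 (deltC12345delt14) and 0.315 (C1C3b). Counts of members called changed by over 1.5 times as follows. Quantile normalisation gave 21 in C1C3b, 4 in C1C3c and 9 in C1+14 against mCherry, and 4 in C1C3c against C1+14. A pseudocount of 8 gave 6 in C1C3c and 6 in C1+14 against mCherry, 11 in C3+14 and 9 in C1C3a against FL, 4 in C1C3c against C1+14 and 1 in C12345delt14. A pseudocount of 0.1 gave 2 in C3+14 and 3 in C1C3a against FL. Without a filter C3+14 against FL gave 3 and C1C3c against C1+14 gave 4. The 2 groups alone gave 8 in C1C3c and 9 in C1+14 against mCherry, 0 in C1C3c against C1+14, 20 in C12345delt14 and 9 in C1C3a against FL. DESeq2 gave 15 in C12345delt14, 1 between the deltC12345 constructs and 8 in C1C3a against FL, where edgeR also gave 8. The causes were not tested.

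With each library left out in turn, counts against mCherry ran from 53 to 55 (FL), 55 to 56 (C3+14), 55 to 55 (C1C3a), 36 to 38 (C1C3b), 10 to 14 (C1C3c) and 7 to 15 (C1+14). Against FL they ran from 2 to 3 (C3+14), 3 to 4 (C1C3a), 49 to 51 (C1C3b), 0 to 0 (C12345delt14), 49 to 51 (deltC12345+14) and 51 to 53 (deltC12345delt14), against C1+14 from 57 to 58 (C1C3a), 32 to 39 (C1C3b) and 2 to 8 (C1C3c), and between the deltC12345 constructs from 0 to 0. The lone library of a group was then assumed to vary like the others. Sum ratios to mCherry ran from 18.3 to 23.7 (FL), 16.9 to 18.3 (C3+14), 29.0 to 31.3 (C1C3a), 3.28 to 3.58 (C1C3b), 1.09 to 1.39 (C1C3c) and 0.746 to 0.909 (C1+14). Those to FL ran from 0.743 to 0.961 (C3+14), 1.27 to 1.65 (C1C3a), 0.145 to 0.187 (C1C3b), 0.405 to 0.564 (C12345delt14), 0.0305 to 0.0411 (deltC12345+14) and 0.0250 to 0.0329 (deltC12345delt14). Those to C1+14 ran from 33.2 to 40.4 (C1C3a), 3.77 to 4.59 (C1C3b) and 1.31 to 1.68 (C1C3c), and that between the deltC12345 constructs from 1.05 to 1.43.

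Replicate numbers did not pair the samples: differences between replicates correlated at -0.101 to 0.0501 across groups of the chimera table and -0.574 to 0.135 in the deletion table. With the replicate block the members called against mCherry were 56 (FL), 57 (C3+14), 56 (C1C3a), 43 (C1C3b), 16 (C1C3c) and 16 (C1+14), and against FL 52 (C1C3b). Crossing the numbers between the deltC12345 constructs called 0 of 16885 genes. Depth limits the low members, since 1 read was worth 0.620 to 1.68 normalised counts in the chimera table.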

Other observations

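Histone chaperones, which carry new histones to DNA, were described from a list of 13, all tested. In FL 1 was higher than in mCherry and 3 lower, with a median of -0.38, where 24.5% of all genes were higher and 19.6% lower. The higher gene was Chaf1b (1.09, limma adjusted p = 1.9e-05), a subunit of the CAF-1 complex, while Chaf1a, its largest subunit, was lower (-1.51, limma adjusted p = 4.2e-06), as were Ubn1 (-1.39) and Atrx (-1.29). In C1C3b against FL the difference was 1.54 for Chaf1a and -1.69 for Chaf1b. Ubn1, a subunit of the HIRA complex, was higher there (2.40) and Daxx, an H3.3 chaperone, lower (-1.41). In the deletion table Chaf1a was higher than in FL in deltC12345+14 (1.35) and deltC12345delt14 (1.44). These genes were chosen after their values were seen, and the FL libraries enter every comparison given here, so a difference of opposite sign from that against mCherry is not independent of it.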
